A study of Mus musculus with 36 samples.

Results

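The insulin-like growth factor (IGF) genes considered here were the ligands Igf1 and Igf2, the receptors Igf1r and Igf2r, and the binding proteins Igfbp2, Igfbp3, Igfbp4, Igfbp5, Igfbp6 and Igfbp7. They were taken by gene symbol: every probe that the platform annotation assigns to one of these symbols was included. All 10 genes were found, on 17 of the 46632 probes of the array, which together name 17711 genes. Genome-wide expression was measured with Illumina MouseWG-6 BeadChips in the complete hippocampus of 23 male mice, in an experiment on Braf and in an experiment on the Cre driver. The Braf experiment compared 5 Braf-cko mice with 6 Braf-flox littermates at 4 months of age. Braf-cko mice carry the floxed Braf allele on both chromosomes and a heterozygous CamkIIa-Cre transgene, Braf-flox mice carry the same floxed alleles without Cre, and both are on a mixed, mostly C57BL/6J background with FVB and 129/Sv parts. The Cre experiment compared 6 CamkII-Cre mice, heterozygous for the transgene and with unmodified Braf, with 6 CamkII-wt littermates on C57BL/6J at 6 months of age, with 2 arrays per animal. Cre is active in the principal neurons of the forebrain, so that glia, vessels and interneurons of a Braf-cko hippocampus keep the gene, and all cell types were measured together. In such tissue, fewer cells of a type and less RNA per cell cannot be told apart.

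IGF1 and IGF2 are secreted peptides that act mainly through IGF1R, a receptor tyrosine kinase that signals through adaptor proteins to the PI3K-AKT pathway and to the RAS-RAF-ERK cascade to which BRAF belongs. IGF2R binds IGF2 and carries it to lysosomes for degradation, and it also sorts lysosomal enzymes. The IGF binding proteins hold the ligands in the extracellular fluid and can either restrain or prolong their action, and IGFBP7 is a more distant relative that binds IGFs weakly. In the adult brain, Igf2 is known from the choroid plexus and the meninges, and IGF2 has a known role in hippocampal memory.

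Igfbp4 and Igfbp5 showed the largest differences between the Braf genotypes. Their upstream sequences are therefore given here, because members that move in opposite directions can be set side by side and because CREB and ELK1, which act below ERK, bind short motifs in promoters. Each line holds the 250 bases before the transcription start, 5′ to 3′ on the gene's strand, from RefSeq on GRCm38.p6. The Igfbp4 window is chr11:99040994-99041243 on the plus strand and the Igfbp5 window is chr1:72874866-72875115 on the minus strand. Capitals mark a match to TATAAA.
Igfbp4: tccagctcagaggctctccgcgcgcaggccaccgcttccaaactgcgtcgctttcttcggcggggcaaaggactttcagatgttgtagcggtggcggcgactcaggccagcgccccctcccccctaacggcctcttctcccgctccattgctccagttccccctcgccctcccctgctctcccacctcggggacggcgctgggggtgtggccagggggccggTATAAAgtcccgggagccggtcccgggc
Igfbp5: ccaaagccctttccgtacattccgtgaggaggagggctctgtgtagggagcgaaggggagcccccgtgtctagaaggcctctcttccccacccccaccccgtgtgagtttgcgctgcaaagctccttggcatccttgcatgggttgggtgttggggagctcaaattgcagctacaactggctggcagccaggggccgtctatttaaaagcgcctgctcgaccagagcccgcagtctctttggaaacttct
The Igfbp4 window holds TATAAA, the TATA box letters, starting at -28 from the transcription start, and 12.4% of the 32851 windows of that length hold it on either strand. It is rich in C and G, with 69.2% GC and 22 CpG dinucleotides, against 58.8% GC and 10 CpG in the Igfbp5 window and medians of 52.4% and 6 over all windows. Neither window holds, on either strand, the full cAMP response element TGACGTCA (1.55% of all windows), its short form TGACG (17.8%), the ETS site CCGGAAG in the form ELK1 binds (6.91%), the Egr site GCGTGGGCG (0.536%), the AP-1 site TGANTCA (6.75%), a CArG box (1.47%) or the GC box GGGCGG (32.7%). TGACG lies inside TGACGTCA, so these shares overlap. Among the 14 windows of all 10 genes, TGACG matched in an Igf2 and an Igf2r window, the AP-1 letters in an Igf1 and an Igfbp2 window, the CArG box in another Igf2 window and TATAAA also in an Igfbp6 window. The GC box matched in windows of Igf1r, Igf2, Igf2r, Igfbp2 and Igfbp7, and TGACGTCA, CCGGAAG and GCGTGGGCG in none of the 14. Only these letters in these windows were searched. Sites farther from the start or in other forms were not covered, so a missing match does not show that a gene lacks such sites. On the chromosome, Igfbp5 directly neighbours Igfbp2, while Igfbp4 lies between Top2a and Tns4.

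Levels are given on the log2 scale of the intensities as the authors normalized them. Medians of the arrays ranged 51.8 to 53.3 for the Braf mice and 64.98 to 70.2 for the Cre mice, so levels are set side by side only within an experiment. The single Braf probe of the array was dim, ranging 5.37 to 5.66 in Braf-cko mice and 5.45 to 5.76 in Braf-flox mice, and did not check the genotype labels. Probes were tested when they were among the brighter 50% of all probes, 23316 in each comparison, with limma and Benjamini-Hochberg adjustment over all of them. 14 of the 17 member probes, covering all 10 genes, passed this filter in the Braf experiment and 13 in the Cre experiment. The 10 genes were chosen by symbol, with the Braf-cko minus Braf-flox differences of Igfbp4 and Igfbp5 known, so the values of that comparison are a description of them without a test, whereas the Cre comparison was made on other animals.

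Igfbp4 encodes a binding protein that mostly restrains IGF action and that the protease PAPP-A cleaves to release the ligand. Its probe ILMN_1239075 measured 9.16, 9.14, 9.60, 9.58 and 9.26 in the Braf-cko mice, against 9.75, 9.96, 10.02, 10.08, 9.99 and 9.95 in the Braf-flox mice. Every Braf-cko mouse lay below every Braf-flox mouse. The mean difference was -0.61 with a standard error of 0.10, or 65.4% of the Braf-flox intensity.

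The other Igfbp4 probe (ILMN_1258988) measured 9.47, 9.25, 9.47, 9.72 and 9.45 in the Braf-cko mice, against 10.09, 10.16, 10.08, 10.02, 10.18 and 10.11 in the Braf-flox mice. Here too the genotypes did not overlap. The difference was -0.63 ± 0.08 (SE), or 64.4% of the Braf-flox intensity. The probes thus gave nearly the same size of difference, and the animals of a genotype that were high on one tended to be high on the other (Pearson r of 0.48 between deviations from the group means over the 23 animals, a description).

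The CamkII-Cre mice, which have the Cre transgene and intact Braf, overlapped with their littermates in Igfbp4. At ILMN_1239075 they measured 10.48, 10.76, 10.65, 10.68, 10.63 and 10.66, against 10.57, 10.41, 10.49, 10.34, 10.55 and 10.74 in CamkII-wt mice. The difference of 0.13 (95% confidence interval -0.02 to 0.27; adjusted p = 0.99997, limma) was on the side opposite to the Braf comparison. ILMN_1258988 differed by 0.08 (interval -0.06 to 0.21). The Braf change minus the Cre change was -0.74 ± 0.12 (SE) and -0.71 ± 0.10 at these probes, given as a description because it contains the Braf comparison.

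Igfbp5, the most conserved of the binding proteins and one that also binds extracellular matrix, moved the other way. At ILMN_1254358 the Braf-cko mice measured 11.86, 11.93, 12.17, 12.11 and 12.19, against 11.25, 11.69, 11.60, 11.55, 11.48 and 11.65 in the Braf-flox mice. All Braf-cko values lay above all Braf-flox values. The difference was 0.52 ± 0.09 (SE), or 143% of the Braf-flox intensity.

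The other Igfbp5 probe (ILMN_2682613) measured 11.25, 11.32, 11.62, 11.44 and 11.45 in Braf-cko mice, against 11.16, 11.43, 10.99, 10.78, 10.88 and 10.89 in Braf-flox mice. All 5 Braf-cko mice lay above the Braf-flox mean, but Braf-flox replicate 2 lay within their range and replicate 1 close to it. The difference of 0.39 ± 0.11 (SE), 131% of the Braf-flox intensity, had the direction of the brighter probe and was not called. In the Cre experiment the probes differed by -0.07 (interval -0.26 to 0.13) and -0.03 (interval -0.25 to 0.18), with overlapping groups and an adjusted p of 0.99997 for each by limma. The Braf change minus the Cre change was 0.58 ± 0.13 and 0.43 ± 0.16 (SE).

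Markers of other cell types were read beside these genes. Of 7 interneuron markers tested, 1 was called lower in Braf-cko mice, the neuropeptide gene Sst (11.01 to 11.72 in Braf-cko mice and 12.02 to 12.35 in Braf-flox mice). The summed interneuron intensity was 14138 to 16224 in Braf-cko mice and 17938 to 21801 in Braf-flox mice. Of 7 principal neuron markers tested, 1 was called higher, the transcription factor gene Neurod2. It ranged 10.89 to 11.19 in Braf-cko mice and 10.38 to 10.75 in Braf-flox mice. Across the 7 markers, however, the median log2 difference was -0.15. Mean levels of Calb1, Camk2a, Ociad2, Prox1 and Wfs1 were lower in Braf-cko mice, and that of Slc17a7 was higher. The summed principal neuron intensities overlapped. Sums of astrocyte, oligodendrocyte, microglial and mural cell markers overlapped between the genotypes. The summed endothelial markers did not, with 5449 to 5804 in Braf-cko mice and 6069 to 7077 in Braf-flox mice. Of the endothelial genes, mean levels of Cdh5, Cldn5, Kdr and Tek were nevertheless higher in Braf-cko mice, and the others were lower. Within groups, Igfbp4 and the endothelial marker score had r = 0.50 (adjusted permutation p = 0.27) and rho = 0.68 (adjusted permutation p = 0.074) in the Braf experiment. In the Cre experiment r was 0.32 (adjusted permutation p = 0.40) and rho 0.36 (adjusted permutation p = 0.38). The part of these cell types in the Igfbp4 and Igfbp5 values was not tested.

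**Figure D1:**
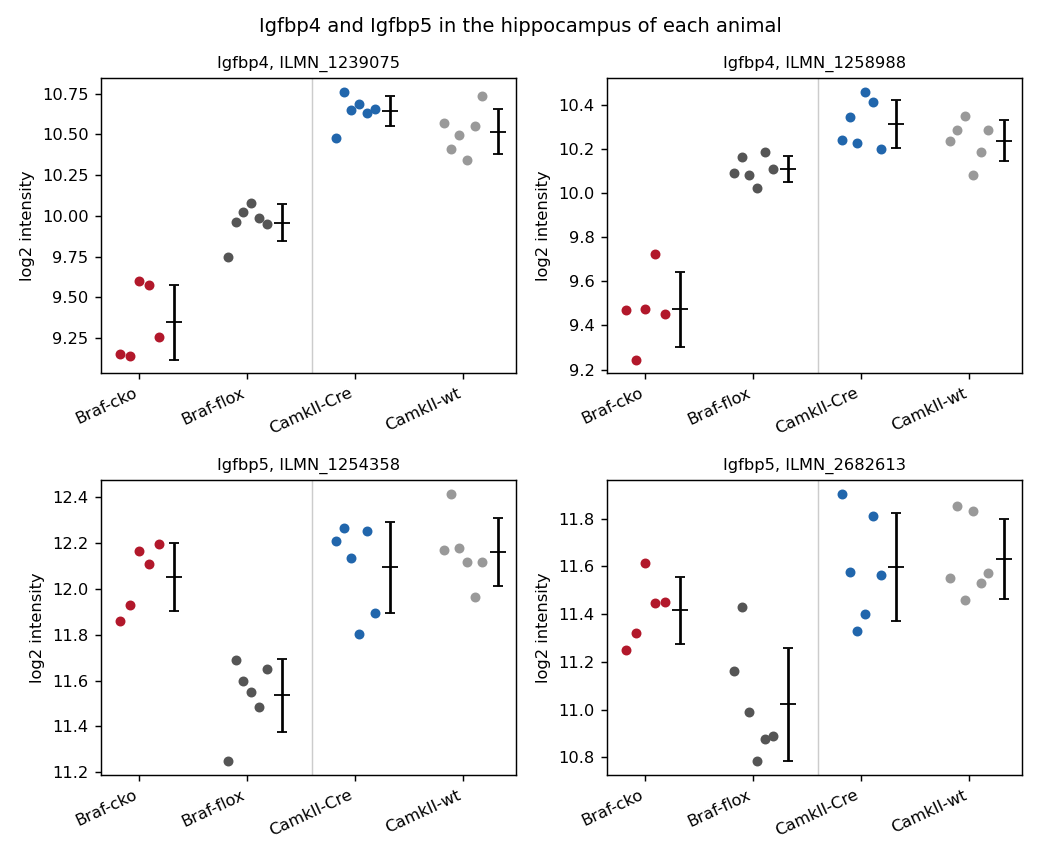
Log2 intensity of the Igfbp4 probes (upper panels) and the Igfbp5 probes (lower panels) in each animal, by genotype; each point is a mouse, and the black mark and bar are the mean and SD (n = 5, 6, 6 and 6). Braf-cko mice lie below Braf-flox mice at both Igfbp4 probes and above them at ILMN_1254358, while CamkII-Cre and CamkII-wt mice overlap throughout; levels compare only within an experiment.

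Igfbp7, which in the brain is known from blood vessels, had a lower level in Braf-cko mice at its bright probe. ILMN_2764588 measured 8.87, 8.85, 8.80, 8.997 and 9.01 in Braf-cko mice, against 9.49, 9.64, 9.08, 9.10, 9.17 and 9.23 in Braf-flox mice. The genotypes did not overlap, but Braf-flox replicates 3 and 4 came close to the Braf-cko mice, and the probe was not called. The difference was -0.38 ± 0.10 (SE), 76.8% of the Braf-flox intensity, and it was -0.56 among the animals numbered 1 to 3 and -0.17 among those numbered 4 and above.

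The summed intensity of 10 endothelial marker genes moved in the same direction, with 5449 to 5804 in Braf-cko mice and 6069 to 7077 in Braf-flox mice. None of the 10 was called, and their median log2 difference was -0.14. Mean levels of Esam, Flt1, Ly6c1, Pecam1, Slc2a1 and Slco1a4 were lower in Braf-cko mice, and those of Cdh5, Cldn5, Kdr and Tek were higher. The part of vessel content in the Igfbp7 value was not tested. The other Igfbp7 probes, ILMN_2447512 and ILMN_2634286, were below the brightness filter, and their levels differed by 0.01 ± 0.09 and -0.19 ± 0.09 (SE). In the Cre experiment ILMN_2764588 differed by -0.11 (interval -0.36 to 0.13).

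Igf2r (ILMN_2589275), the clearance receptor for IGF2, measured 8.28 to 8.56 in Braf-cko mice (median 8.43) and 8.10 to 8.43 in Braf-flox mice (median 8.25). All 5 Braf-cko mice lay above the Braf-flox mean, yet the ranges overlapped. The difference was 0.17 ± 0.07 (SE) and was not called. Between CamkII-Cre and CamkII-wt mice Igf2r differed by -0.06 (interval -0.16 to 0.04).

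The signaling receptor Igf1r was measured by 4 probes. Its brightest probe (ILMN_1249824) ranged 8.68 to 8.93 in Braf-cko mice (median 8.86) and 8.60 to 8.89 in Braf-flox mice (median 8.79), a difference of 0.04 ± 0.07 (SE). The other probes, ILMN_1239663, ILMN_1217763 and the dim ILMN_1232222, differed by 0.05, 0.02 and 0.00 between the Braf genotypes. None separated the groups in either experiment. From animal to animal the 4 probes gave no common Igf1r profile, with r between -0.24 and 0.17 over the 23 animals.

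The ligand Igf1 (ILMN_2769884), which in the brain is made by neurons, by microglia and by vessel cells, measured 6.54 to 6.78 in Braf-cko mice (median 6.58) and 6.59 to 6.88 in Braf-flox mice (median 6.69), and the difference was -0.08 ± 0.07 (SE). Between CamkII-Cre and CamkII-wt mice it was also -0.08 (interval -0.27 to 0.11). No relation of Igf1 to the microglial marker score passed the test (r = -0.38, adjusted permutation p = 0.38 in the Braf experiment, and r = -0.26, adjusted permutation p = 0.47 in the Cre experiment).

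Igf2 (ILMN_2597769) and Igfbp2 (ILMN_1236788) varied widely between animals of a group. Igf2 measured 10.35, 10.20, 10.49, 11.10 and 11.26 in Braf-cko mice, against 11.12, 11.09, 10.46, 10.30, 10.79 and 11.63 in Braf-flox mice. In the Cre experiment the values were 11.15, 12.26, 10.85, 11.81, 11.87 and 10.75 in CamkII-Cre mice, against 10.68, 11.15, 13.12, 11.77, 11.02 and 10.85 in CamkII-wt mice. Both pairs of groups overlapped widely, with differences of -0.22 ± 0.23 (SE) and 0.02 ± 0.37 (SE; interval -0.78 to 0.81). The Braf difference of Igf2 was -0.54 among the animals numbered 1 to 3 and 0.28 among those numbered 4 and above.

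Igfbp2, a binding protein of cerebrospinal fluid and developing brain, measured 7.54, 7.42, 7.60, 7.77 and 8.18 in Braf-cko mice, against 8.28, 7.62, 7.95, 8.04, 7.74 and 8.87 in Braf-flox mice. It measured 7.73, 8.49, 7.47, 7.91, 8.18 and 7.20 in CamkII-Cre mice, against 7.70, 7.45, 9.60, 8.56, 7.63 and 7.30 in CamkII-wt mice. The differences were -0.38 ± 0.19 (SE) and -0.21 ± 0.34 (SE; interval -0.94 to 0.51). The animal with the highest Igf2 also had the highest Igfbp2 in each experiment, Braf-flox replicate 6 and CamkII-wt replicate 3.

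The same animals stood apart in markers of the choroid plexus, the epithelium that makes cerebrospinal fluid and lies against the hippocampus. Of 13 such genes, 6 were bright enough to be tested in the Braf experiment and 10 in the Cre experiment. Their summed intensity was 547 to 2088 in Braf-cko mice and 456 to 17508 in Braf-flox mice, the highest being replicate 6. It was 1482 to 29858 in CamkII-Cre mice and 846 to 37632 in CamkII-wt mice. Only CamkII-Cre replicates 2 and 5 and CamkII-wt replicates 3 and 4 exceeded 10000, and they had the 4 highest Igfbp2 levels of their experiment, from 8.18 to 9.60, with 7.91 as the next.

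Ttr, which encodes the thyroid hormone carrier transthyretin, measured 14.69, 14.34, 14.95 and 14.35 in those 4 animals, and 7.23 to 10.22 in the other animals of the Cre experiment. Igf2 in the 4 animals was 12.26, 11.87, 13.12 and 11.77. CamkII-Cre replicate 4 had an Igf2 level of 11.81 without high choroid plexus markers, and it had the highest summed intensity of leptomeningeal and fibroblast markers (14314). The part of these tissues in the Igf2 and Igfbp2 values was not tested.

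Igf2 and Igfbp2 were set against each other as deviations from the group means. Because the animals with high choroid plexus markers form a cluster of their own, no test is given over all animals of an experiment. Without them, r was 0.66 over 8 mice of the Cre experiment (permutation p = 0.069, two-sided; Spearman's rho 0.62, permutation p = 0.12) and 0.51 over 10 mice of the Braf experiment (permutation p = 0.14; rho 0.44, permutation p = 0.20). Neither relation passed the threshold in these 8 and 10 mice, with p-values that were not adjusted. So few mice cannot show that a relation is absent. Leaving out the mice with high choroid plexus markers was chosen after seeing the data.

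Leaving them out also left the genotype differences small. Without Braf-flox replicate 6, the Braf difference was -0.07 for Igf2 and -0.22 for Igfbp2. Without the 4 mice, the Cre difference was 0.22 for Igf2 and 0.06 for Igfbp2, and none of the 13 tested member probes was called.

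Igf2 followed the leptomeningeal marker score, a mean log2 level of 6 or 7 genes, in the Braf experiment. There r was 0.89 (adjusted permutation p = 0.0064, two-sided) and rho 0.84 (adjusted permutation p = 0.017) over 11 mice, and r was 0.94 after leaving out the mice farthest from the median score. In the Cre experiment r was 0.21 (adjusted permutation p = 0.54) and rho 0.45 (adjusted permutation p = 0.27) over 12 mice. After leaving out the mice farthest from the median score there, r was 0.49. The coefficients of both experiments include the mice with high choroid plexus markers, which had high Igf2, and the relation without these mice was not tested. The Cre values therefore do not show that Igf2 and this score are unrelated in the remaining mice. The difference between the experiments was not tested. In all, 12 relations between members and other members or marker scores were computed, and p-values were adjusted over their 24 coefficients.

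**Figure D2:**
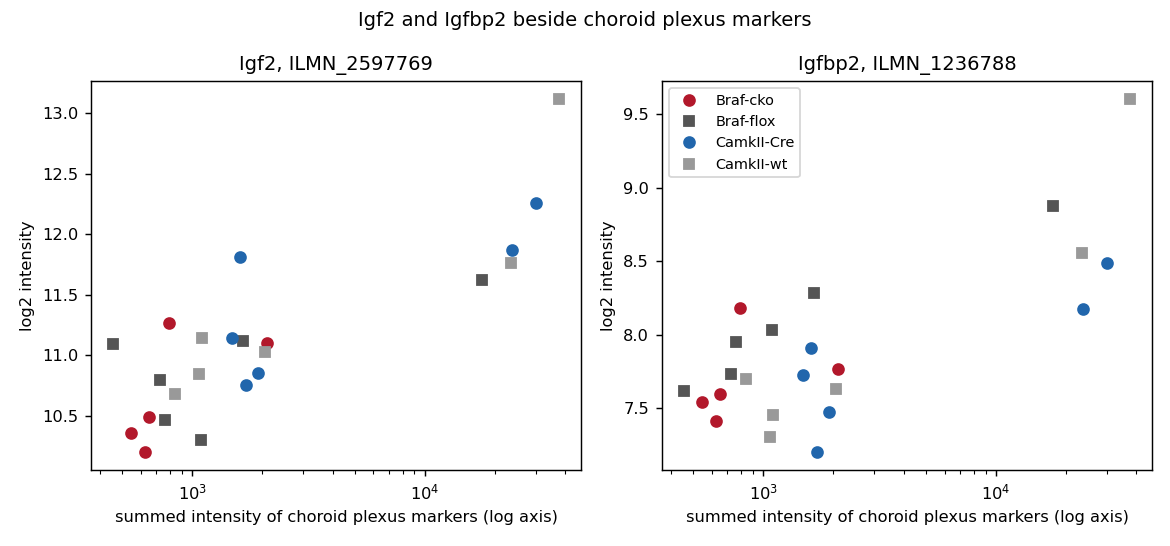
Log2 intensity of Igf2 (left) and Igfbp2 (right) against the summed intensity of choroid plexus marker genes on a log axis; each point is a mouse, coloured by group. The 5 mice on the right, 1 Braf-flox, 2 CamkII-Cre and 2 CamkII-wt, lie at 17508 and above, and the mouse at 37632 has the highest Igf2 (13.12) and Igfbp2 (9.60). The sum is over 6 genes in the Braf experiment and 10 in the Cre experiment, so sums and levels compare only within an experiment.

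Igfbp3 (ILMN_1219335), the main carrier of IGFs in serum, ranged 6.41 to 7.11 in Braf-cko mice (median 6.51) and 6.26 to 6.93 in Braf-flox mice (median 6.38). Igfbp6 (ILMN_2689790), which prefers IGF2 over IGF1, ranged 6.48 to 7.43 in Braf-cko mice (median 6.98) and 6.61 to 7.81 in Braf-flox mice (median 6.97). The Braf differences of 0.19 ± 0.14 and -0.10 ± 0.20 (SE) came with overlapping groups. Neither kept its direction within the numbered subsets: among the animals numbered 1 to 3 the difference was 0.36 for Igfbp3 and -0.57 for Igfbp6, and among those numbered 4 and above it was -0.03 for Igfbp3 and 0.46 for Igfbp6. The Cre differences were 0.02 (interval -0.27 to 0.30) for Igfbp3 and -0.10 (interval -0.41 to 0.22) for Igfbp6.

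Over the 14 tested member probes of the Braf comparison, 2 were called lower (both Igfbp4), 1 higher (Igfbp5) and 11 were not called. Of all 23316 probes tested, 0.373% were called lower and 0.159% higher, 0.532% in all, and nothing is read from the members' count beside it. Groups did not overlap for 3 member probes lower in Braf-cko mice (both Igfbp4 probes and ILMN_2764588 of Igfbp7) and 1 higher (Igfbp5), with 1.03% and 0.691% of all probes. The median difference of the members was -0.03, against 0.00 over all probes tested, and the median size of the difference was 0.21, against 0.07. The members were chosen with the differences of Igfbp4 and Igfbp5 known, so nothing is read from these medians either.

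In the Cre comparison none of the 13 tested member probes was called, with an adjusted p of 0.99997 for each by limma. 0 of them had an unadjusted p under 0.05, the methods' t-test called 0, and no member separated the groups. Of all probes, 0.00858% were called, 1.63% had an unadjusted p under 0.05 and 0.0815% did not overlap, so that 0 of 13 is near the background. The median size of the members' differences was 0.08, against 0.04 over all probes. In the Braf change minus the Cre change, the Igfbp4 probes alone were called among the 13 tested members, with 0.184% of all probes called.

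**Figure D3:**
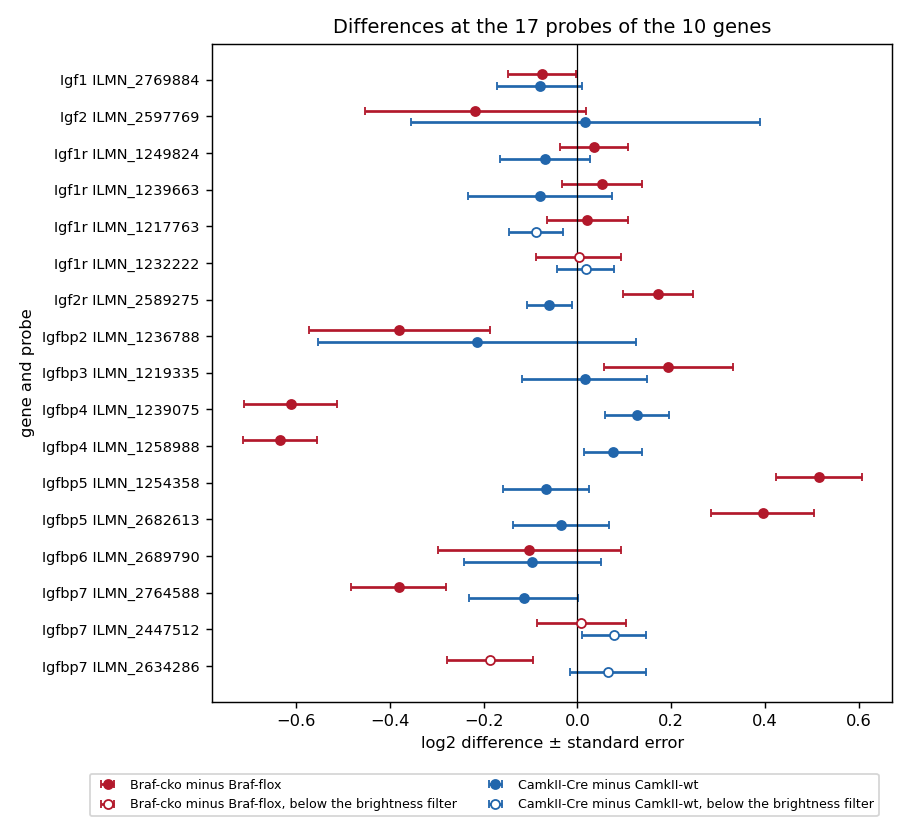
Log2 difference with its standard error at each of the 17 member probes, Braf-cko minus Braf-flox in red and CamkII-Cre minus CamkII-wt in blue; open points are probes below the brightness filter. The Igfbp4 probes lie at -0.61 and -0.63 and the Igfbp5 probes at 0.52 and 0.39 in the Braf comparison, while the Cre differences lie between -0.21 and 0.13.

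The 2 arrays of each animal in the Cre experiment show how far repeat measurements of an animal differ. The SD between animals was taken on the means of an animal's 2 arrays, and the SD between arrays on single arrays. These SDs are therefore not like measures. For Igf2, the SD was 0.10 between arrays of an animal and 0.78 between animals of a group, and for Igfbp2 it was 0.10 and 0.70. The first and second arrays of an animal correlated at r = 0.98 for both genes over 12 animals. Igfbp6 (0.09 between arrays and 0.29 between animals) and Igfbp5 at ILMN_2682613 (0.05 and 0.20) likewise varied more between animals than between arrays.

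For Igf2r (0.06 and 0.06) and Igf1 (0.15 and 0.17), the SD between animal means was about that between single arrays. Averaging the arrays of an animal lowers the measurement part, so this does not make the spread between animals all measurement. Over all tested probes the medians were 0.11 between arrays and 0.12 between animals. Igfbp4 lay in between, with 0.07 and 0.12 at ILMN_1239075 and 0.06 and 0.10 at ILMN_1258988. The second set of arrays differed from the first by -1.02 for Igfbp3 and by -0.88 for Igfbp7, while the median size of such a shift was 0.14, and each animal of both genotypes had an array in each set.

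**Figure D4:**
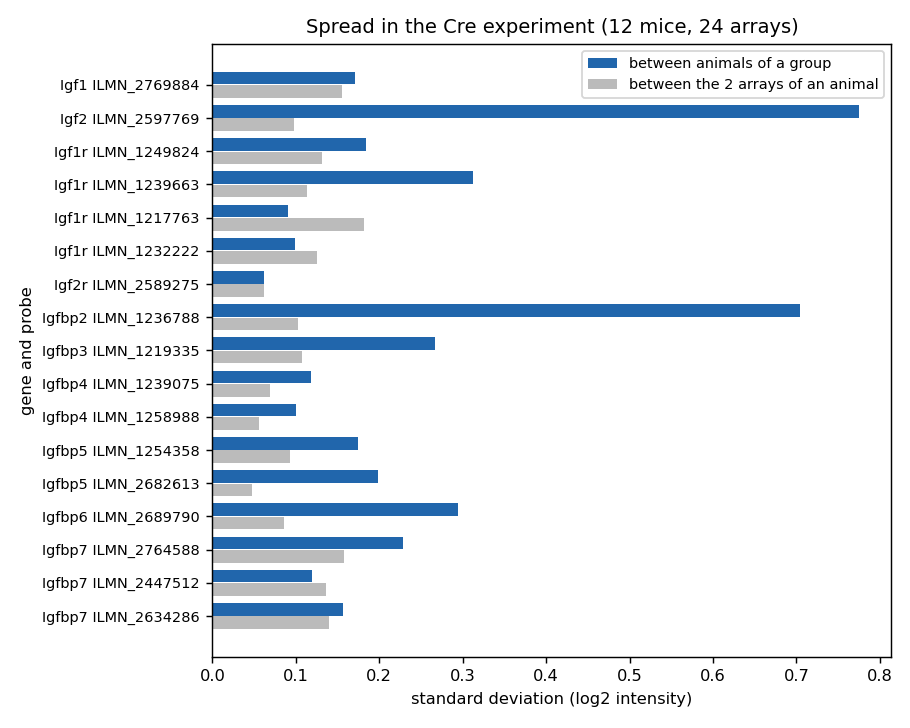
Standard deviation of log2 intensity at each member probe in the Cre experiment, between animals of a group (blue) and between the 2 arrays of an animal after centring each set of arrays (grey); the x axis starts at 0. Igf2 and Igfbp2 reach 0.78 and 0.70 between animals and 0.10 between arrays. Blue bars are for the means of an animal's 2 arrays and grey bars for single arrays.

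In the Cre experiment the animals numbered 1 to 3 and those numbered 4 and above differed at 991 of the probes tested, and at 12 in the Braf experiment; the labels do not say what the numbers stand for. Among the members, Igfbp7 at ILMN_2764588 was 0.32 lower in the animals numbered 1 to 3 of the Cre experiment (adjusted p = 0.043, limma). In this experiment Igfbp7 was low where the endothelial marker score was high, with r = -0.76 (adjusted permutation p = 0.021) and rho = -0.72 (adjusted permutation p = 0.045). Within the animals numbered 1 to 3 r was -0.68 and within those numbered 4 and above it was -0.47, over 6 mice each. In the Braf experiment r was 0.44 (adjusted permutation p = 0.29) and rho 0.04 (adjusted permutation p = 0.92).

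For each of the 4 most variable members and for Igfbp4 and Igfbp5, the genes with the most similar deviations over the 23 animals were listed as a description; animals share their arrays' normalization, and the 5 mice with high choroid plexus markers enter each coefficient. Igf2 was most like Cdkn1c (r = 0.95), a maternally expressed cell cycle inhibitor of the imprinted region that also holds Igf2, then Tcea3 (0.91) and Igfbp2 (0.89). Igfbp2 was most like Cdkn1c (0.96), C1qtnf5 (0.93) and Cox8b (0.92). Cdkn1c was also among the nearest 3 of both by rank correlation and in the Cre experiment alone.

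The coefficients were lower for the other members. Igfbp6 was most like Podxl2 (0.78), Clstn1 (0.77) and Vsig2 (0.77), and Igfbp3 was most like Pnck (0.79), Cpne2 (0.77) and Necab2 (0.74). Igfbp4 was most like Rph3a (0.80), a synaptic vesicle protein, Sprn (0.79) and Inf2 (0.79). Igfbp5 was most like Mkln1 (0.77), Rfx5 (0.77) and Usp1 (0.74). None of these names for Igfbp4 and Igfbp5 stayed among the nearest 3 by rank correlation or in the Cre experiment alone. The coefficients are the highest of all probes compared, and the genes' own probes correlated at only 0.48 (Igfbp4) and 0.43 (Igfbp5).

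Other genes of insulin and IGF signaling did not pass the test in either experiment. Of 58 listed genes, 50 were on the array, and 38 were tested in the Braf comparison and 36 in the Cre comparison, each by its brightest tested probe. None was called lower or higher by limma, while 0.667% and 0.00853% of all genes were called in these comparisons, and 1 gene in each had an unadjusted p under 0.05. The median difference of the list was 0.02 in the Braf comparison and 0.01 in the Cre comparison.

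The smallest adjusted p-values all came from the Braf comparison. Insr, the insulin receptor, averaged 6.03 ± 0.09 in Braf-cko mice and 6.20 ± 0.13 in Braf-flox mice (SD; difference -0.16, adjusted p = 0.46, limma). Akt2, a kinase of the insulin pathway, differed by -0.15 (adjusted p = 0.49, limma), Foxo1, a transcription factor that AKT inhibits, by 0.21 (adjusted p = 0.50, limma), and Htra1, a secreted protease that cleaves IGF binding proteins, by -0.17 (adjusted p = 0.50, limma). The 9 tested relatives and proteases of the binding proteins lay between -0.19 and 0.14, the 7 adaptors between -0.15 and 0.16 and the 20 genes of the PI3K-AKT-mTOR arm between -0.15 and 0.21.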

How the data were processed

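The authors hybridized hippocampal RNA of single mice to MouseWG-6 v1.1 arrays and deposited a normalized linear intensity per probe. The sources name beadarray, limma and vsn, without order or settings. Whether animals numbered alike share a cage, litter or day is not stated, so p-values measure the spread between these mice. A second table of non-normalized intensities was not used, since its 72 columns match no label. Gene names came from the platform annotation: 29976 probes have 1 symbol, 10 several and 16646 none, and 29921 were updated by identifier.

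Deposited values were log2-transformed, and repeat arrays were averaged per animal. The brighter 50% of probes were fitted with limma 3.58.1 in R 4.3.3 (lmFit, eBayes; Benjamini-Hochberg; threshold 0.05). Permutation tests used 100000 permutations, two-sided. The number of animals, not read depth, limits the precision. All member probes are named; the brightest over all animals stands for a gene in summaries and correlations. From the pathway list the genes past the threshold and the 4 smallest adjusted p-values are named, and for likeness the nearest 3. The members and lists were chosen with earlier results of these data known. The fit was tested on simulated data. Alternatives were the filter, an offset of 16, quantile normalization, blocks, single arrays, a Student t-test per probe and leaving out animals.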

Additional observations from a re-analysis of the deposited data

Results flagged for a closer look

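In 3 of 68 sets of probe and group, 1 animal lay far from the rest by Dixon's criterion, and chance marks about 1 in 20 sets. Braf-cko replicate 1 had the lowest Igf1r level at ILMN_1239663 (7.64, with 7.89 as the next). Braf-flox replicate 5 had the highest Igfbp3 level at ILMN_1219335 (6.93, with 6.45 as the next). CamkII-wt replicate 4 had the lowest Igfbp7 level at the dim probe ILMN_2447512 (5.06, with 5.33 as the next). None of the 3 probes was called in either comparison.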

How the results depend on the processing

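The limits are the small groups, the unstated normalization, the dim probes of Igf1r and Igfbp7, and values of whole tissue. Of the member probes, 3 were called in the Braf comparison, and 1 (Igfbp4) with a Student t-test per probe in place of limma. With the animals numbered 1 to 3 only 0 were called, and 0 with those numbered 4 and above only, where fewer animals are compared. Leaving out each animal in turn gave 2 to 4 calls. The Igfbp5 probe ILMN_1254358 was lost without Braf-cko replicate 3, 4 or 5 (2 calls each time), and the other Igfbp5 probe was added without Braf-flox replicate 2 (4 calls). Over these alternatives the Igfbp4 differences ran from -0.68 to -0.56 and from -0.71 to -0.52, and those of Igfbp5 from 0.46 to 0.59 and from 0.20 to 0.60. In the Cre comparison 0 member probes were called in every alternative run, including that without the 4 mice of high choroid plexus markers, which was chosen after seeing the data. With the replicate number as a block, 3 member probes were called in the Braf comparison and 0 in the Cre comparison. The deviations of animals of the same number correlated at r from -0.14 to 0.13 in the Braf experiment and from -0.24 to 0.59 in the Cre experiment, so that not every pair deviated together, and the own number was the best match for 1 of 5 and 2 of 6. Over the whole table, 124 probes were called in the Braf comparison, 58 with the block, 1 and 14 within the numbered subsets, 19 by the t-test and 69 to 114 without 1 animal. In the Cre comparison 2 probes were called over the whole table and 0 to 6 in the alternatives. Of the 18 likeness names, 5 stayed among the nearest 3 by Spearman correlation and 3 in the 12 animals of the Cre experiment alone. Of the single differences, 767 moved by less than 1 SD between animals, 15 by more, and no called value changed sign. The causes were not tested.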
